A study of Homo sapiens with 12 samples.

Results

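The response to anlotinib that HCCC9810 and RBE had in common was taken from all 12 RNA-seq libraries of the series. Both lines are established models of human cholangiocarcinoma that arises within the liver, in cells lining its bile ducts, and each stands for a single tumour. In each line 3 libraries came from cultures given anlotinib at 5 µM for 24 h and 3 from cultures of the same line without the drug, so 6 treated libraries were compared with 6 controls. All cultures grew in RPMI medium with fetal bovine serum and antibiotics. The drug was carried in DMSO (0.1% at the end), and the sources used here do not say whether the controls received DMSO. The design text calls the 3 libraries of a group biological replicates, with no word on separate thawings or passages. A gene belonged to the common response when the effect of the drug passed the test in HCCC9810 and in RBE and had the same sign. Of 18035 genes with enough counts, 795 met this rule, 477 of them higher and 318 lower with the drug.

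The sign of every value rests on the words control and treat in the column headers. The numbers in the headers did not match the sample titles: each of the 12 numbers belonged to a title that, within its line, names the opposite treatment. If the numbers rather than the words were right, every sign would turn in both lines alike. Each library keeps its header number: 7, 8 and 9 are HCCC9810 controls, 10, 11 and 12 HCCC9810 with anlotinib, 1, 2 and 3 RBE controls, and 4, 5 and 6 RBE with anlotinib. Values of single libraries are listed in that order.

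Total counts ran from 15215193 to 40963529 per library. Bile duct keratins were abundant in both lines, with KRT19 at 1755 to 4091 CPM (counts scaled to a common library size) in HCCC9810 and 615 to 1177 CPM in RBE. All 15 epithelial and biliary markers had counts. All 8 endothelial and all 8 leukocyte markers had counts as well. Their summed levels were 14.4 to 37.1 RPKM (reads scaled by library size and transcript length) for the endothelial list, led by EGFL7, and 2.82 to 34.8 RPKM for the leukocyte list, led by LYZ. In each list 2 of the 8, among them KDR, ERG and CD3E, were below 0.1 RPKM in every library. The epithelial and biliary sum was 1510 to 4100 RPKM. All 10 hepatocyte and all 10 fibroblast markers had counts too, with sums of 18.2 to 46.5 and 9.83 to 22.9 RPKM. The part of these non-epithelial markers in the results was not tested. RBE anlotinib library 6 and HCCC9810 control library 7 stood apart in earlier results on these data. Without both, the genes called in both lines numbered 495 higher and 367 lower, and the genes called in opposite directions rose from 352 to 1155.

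Anlotinib is an oral inhibitor of tyrosine kinase receptors, among them those for VEGF, FGF and PDGF and the receptors KIT and RET. Cells make cholesterol through the mevalonate pathway, whose genes are switched on together by the transcription factor SREBP2 when membranes of the endoplasmic reticulum run low in sterol. INSIG1 and SCAP control that step, and SREBP1 drives the related genes of fatty acid synthesis. Genes for DNA replication are switched on at the start of S phase by E2F factors, and genes for mitosis later in the cycle through NF-Y and CHR promoter elements.

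Anlotinib changed 2605 of the 18035 genes when the mean effect over both lines was tested (14.4%, edgeR quasi-likelihood test with line as a block, adjusted p below 0.05). Of these, 1383 were higher (7.67%) and 1222 lower (6.78%). In 2516 of the 2605 the effects had the same sign in both lines, beside 49.2% of all genes tested. Unlike effects in the lines widen the spread in this fit, so that agreement follows in part from the call. Of the 2605, 1616 passed the test in a single line and 194 in neither. The line effects themselves were called for 1997 genes higher (11.1%) and 2306 lower (12.8%) in HCCC9810, and for 1689 higher (9.37%) and 1500 lower (8.32%) in RBE.

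The 477 genes higher in both lines were 2.64% of all genes tested. They made up 23.9% of the HCCC9810 list of higher genes and 28.2% of the RBE list. The 318 genes lower in both lines were 1.76% of all genes tested, and 13.8% and 21.2% of the lists of lower genes. A further 352 genes (1.95%) passed the test in both lines with opposite signs, 190 of them higher in HCCC9810 and 162 higher in RBE. This count depended on single libraries: it was 184 without library 5, 193 without 1, 203 without 4, 205 without 9, 213 without 3, 214 without 8, 224 without 12 and 614 without 6. Under GC and length offsets it was 584. Over all genes tested the sign was shared by 49.2%, and the correlation of the effects across genes was close to 0 (Pearson r 0.097, Spearman rho 0.0283), given as a description over genes that share libraries and depth.

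**Figure D1:**
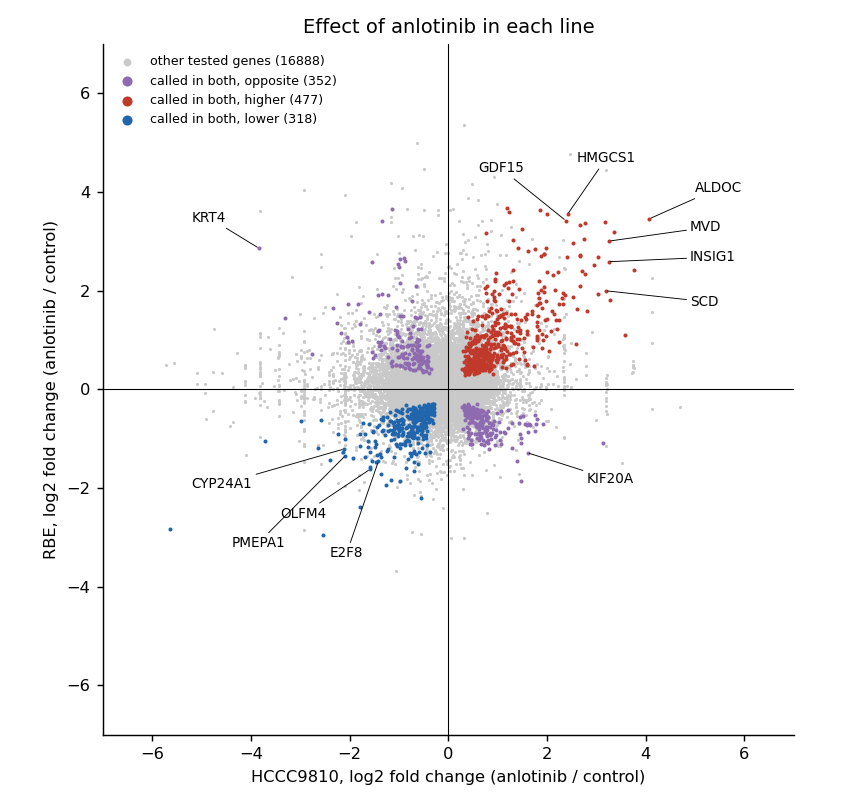
The log2 fold change with anlotinib is shown for each of 18035 genes, HCCC9810 on the horizontal axis and RBE on the vertical axis. Red points (477) and blue points (318) passed the test in both lines with the same sign, purple points (352) with opposite signs, and the genes farthest out in the upper right corner include ALDOC, MVD, HMGCS1 and INSIG1.

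The common effects were of moderate size. The median log2 fold change of the 477 higher genes was 0.82 in HCCC9810 and 0.84 in RBE, and that of the 318 lower genes -0.70 and -0.67. At least 2-fold in each line were 131 of the higher genes (0.726% of all tested) and 37 of the lower genes (0.205%). CPM ranges of treated and control libraries were apart in both lines for 462 of the 477 and 308 of the 318, beside 947 (5.25%) and 777 (4.31%) of all genes tested. The effect differed between the lines by a test of the difference in 57 of the 477 and 24 of the 318, while that test was passed by 2990 of all genes (16.6%), 8.92% with the larger value in RBE and 7.66% with the larger value in HCCC9810. For 163 of the higher and 133 of the lower genes the 95% interval of the difference lay within 1.5-fold. The 477 and 318 genes were chosen by tests in each line on these same counts. Ranges that lie apart and few calls for the difference therefore follow in part from that choice.

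Control levels were within 2-fold of each other between the lines for 273 of the 477 higher genes, and over 4-fold apart for 85. Among the closest matches in effect was GMPS, an enzyme of GMP synthesis, which fell by 0.32 in HCCC9810 and 0.33 in RBE on the log2 scale. GC content moved with direction: the median GC content of transcripts was 52.2% for the higher genes, 45.8% for the lower genes and 48.6% for all genes tested, and its part in the calls was not tested beyond the GC offsets described at the end.

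Genes of sterol synthesis rose almost throughout. Of 21 tested genes of cholesterol synthesis, 19 rose in both lines and none fell in both. The median mean log2 fold change was 2.08 against -0.0178 over all genes tested. For this and every later list, the shares over all genes tested were 2.64% higher in both lines, 1.76% lower and 1.95% opposite.

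Promoter windows are given for 6 genes called in both lines, as examples of the elements counted here. Each runs from 250 bases before the RefSeq start to 50 after it (RefSeq build GRCh38.p14), 5′ to 3′ on the strand of the gene. Capitals mark matches on either strand to the SRE core TCACNCCAC, the NF-Y box CCAAT, the E box CACGTG, the CHR element TTTGAA and the E2F element TTTGGCGC. MVD lies at chr16:88663042-88663341 on the minus strand, MSMO1 at chr4:165327419-165327718 on the plus strand and SREBF2 at chr22:41832855-41833154 on the plus strand. ALDOC lies at chr17:28576846-28577145 on the minus strand, TOP2A at chr17:40417847-40418146 on the minus strand and POLA1 at chrX:24693668-24693967 on the plus strand.
MVD: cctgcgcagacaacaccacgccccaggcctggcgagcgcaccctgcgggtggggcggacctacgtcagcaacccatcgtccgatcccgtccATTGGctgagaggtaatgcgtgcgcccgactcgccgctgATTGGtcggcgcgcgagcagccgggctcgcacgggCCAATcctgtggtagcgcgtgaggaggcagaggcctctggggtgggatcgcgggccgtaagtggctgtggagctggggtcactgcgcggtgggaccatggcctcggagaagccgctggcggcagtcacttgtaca
MSMO1: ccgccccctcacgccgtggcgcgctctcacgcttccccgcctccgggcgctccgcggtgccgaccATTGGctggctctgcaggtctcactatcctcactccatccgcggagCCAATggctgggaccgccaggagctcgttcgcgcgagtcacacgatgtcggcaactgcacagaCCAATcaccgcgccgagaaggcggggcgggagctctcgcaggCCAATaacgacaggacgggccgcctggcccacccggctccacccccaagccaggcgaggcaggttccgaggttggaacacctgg
SREBF2: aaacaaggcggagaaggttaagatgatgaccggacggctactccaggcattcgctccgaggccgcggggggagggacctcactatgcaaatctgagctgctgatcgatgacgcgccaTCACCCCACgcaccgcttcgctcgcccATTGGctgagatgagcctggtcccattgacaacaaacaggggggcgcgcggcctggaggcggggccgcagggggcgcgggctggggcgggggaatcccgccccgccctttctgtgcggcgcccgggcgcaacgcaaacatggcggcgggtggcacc
ALDOC: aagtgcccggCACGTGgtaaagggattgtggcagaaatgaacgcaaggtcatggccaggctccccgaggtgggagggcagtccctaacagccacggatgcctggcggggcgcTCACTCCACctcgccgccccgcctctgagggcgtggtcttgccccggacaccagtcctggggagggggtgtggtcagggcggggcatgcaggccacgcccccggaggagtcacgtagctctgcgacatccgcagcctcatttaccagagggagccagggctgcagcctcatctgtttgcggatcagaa
TOP2A: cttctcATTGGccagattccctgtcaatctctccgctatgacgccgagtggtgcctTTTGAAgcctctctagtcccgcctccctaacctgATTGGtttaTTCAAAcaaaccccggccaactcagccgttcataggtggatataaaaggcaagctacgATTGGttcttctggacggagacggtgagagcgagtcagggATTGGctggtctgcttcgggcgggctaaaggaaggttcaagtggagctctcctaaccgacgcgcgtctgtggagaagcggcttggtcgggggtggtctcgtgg
POLA1: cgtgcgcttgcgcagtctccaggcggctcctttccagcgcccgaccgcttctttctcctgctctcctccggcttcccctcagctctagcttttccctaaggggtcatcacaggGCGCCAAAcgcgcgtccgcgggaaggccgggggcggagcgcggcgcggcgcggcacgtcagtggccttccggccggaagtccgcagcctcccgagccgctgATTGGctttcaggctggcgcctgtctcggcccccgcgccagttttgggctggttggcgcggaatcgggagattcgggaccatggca
A match is a run of letters, not a bound site. Promoters in RefSeq were matched by symbol for 338 of the 477 higher genes and 248 of the 318 lower genes.

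The NF-Y box CCAAT stood in 78.9% of the 19 promoter windows of the 14 matched cholesterol genes that rose in both lines, compared with 34.6% of all 35116 windows of the same length. MVD holds 3 matches and MSMO1 holds 4. The box was not particular to these genes: it stood in 88.9% of the 18 windows of mitotic genes called in opposite directions. Its share was 34% in the windows of all higher genes and 34.2% in those of tested genes. The SRE core TCACNCCAC was found in none of those 19 windows but in 1.81% of the windows of all higher genes and 1.13% of all windows, among them SREBF2 and ALDOC. The E box CACGTG stood in 14.9% of the 497 windows of the higher genes, against 8.97% of the windows of tested genes and 7.26% of all windows.

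INSIG1, which holds SREBP in the endoplasmic reticulum while sterol is plentiful, was among the clearest. In HCCC9810 it read 28.6, 30.1 and 29.2 CPM in controls and 263, 297 and 276 CPM with anlotinib. RBE controls held 44.9, 40.9 and 54.2 CPM of INSIG1 and the treated cultures 275, 276 and 292 CPM. All 6 treated libraries lay above all 6 controls, and the treated levels of the lines came close together. The mean log2 fold change was 2.91 ± 0.13 (SE, 6 against 6, edgeR adjusted p 5.54e-09), and the rise was larger in HCCC9810 (difference RBE minus HCCC9810 -0.66, edgeR adjusted p 0.0105).

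HMGCS1, the HMG-CoA synthase at the entry of the mevalonate pathway, counted 60.6, 72.7 and 73.5 CPM in HCCC9810 controls and 254, 468 and 384 CPM with the drug. RBE gave 41.7, 48.1 and 34.2 CPM without and 499, 521 and 432 CPM with it. Treated and control libraries did not overlap in either line, and library 10 was the lowest treated library. The mean log2 fold change was 2.98 ± 0.22 (edgeR adjusted p 1.16e-06) and the effect was larger in RBE by 1.13 on the log2 scale (edgeR adjusted p 0.0121).

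Further down the mevalonate branch, MVD, which makes isopentenyl pyrophosphate, read 31.6, 22.6 and 24.8 CPM in HCCC9810 controls and 187, 262 and 307 CPM with anlotinib. Its RBE levels were 41.7, 40.3 and 45.5 CPM in controls and 299, 283 and 443 CPM with the drug. MVD rose in all 6 treated libraries, by a mean log2 fold change of 3.13 ± 0.15 (edgeR adjusted p 1.23e-08). The 95% interval of its difference between lines ran from -0.86 to 0.35.

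The late steps moved too. DHCR7, the last enzyme of one branch to cholesterol, had a mean log2 fold change of 2.86 ± 0.13, FDFT1, squalene synthase, 2.74 ± 0.14, LSS, lanosterol synthase, 2.56 ± 0.12, and MSMO1, a sterol-C4 oxidase, 2.74 ± 0.14. SQLE, squalene epoxidase, rose by 2.02 ± 0.11. ACAT2, the thiolase that feeds the pathway, rose by 2.69 ± 0.10, with 52.3% of its exon bases shared with another gene, and CYP51A1, lanosterol demethylase, by 2.22 ± 0.12 with 83.2% shared. NSDHL rose in both lines from very different levels: from 45.1 ± 7.19 to 177 ± 29.1 CPM in HCCC9810, and from 0.348 ± 0.132 to 0.803 ± 0.29 CPM in RBE. PMVK and GGPS1 were the tested genes not called in both. PMVK rose in HCCC9810 alone (0.64). GGPS1, which diverts the pathway to prenylation, fell in HCCC9810 and was not called in RBE (log2 fold changes -0.83 and 0.20). Without libraries 6 and 7 the count was 18 of 21.

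**Figure D2:**
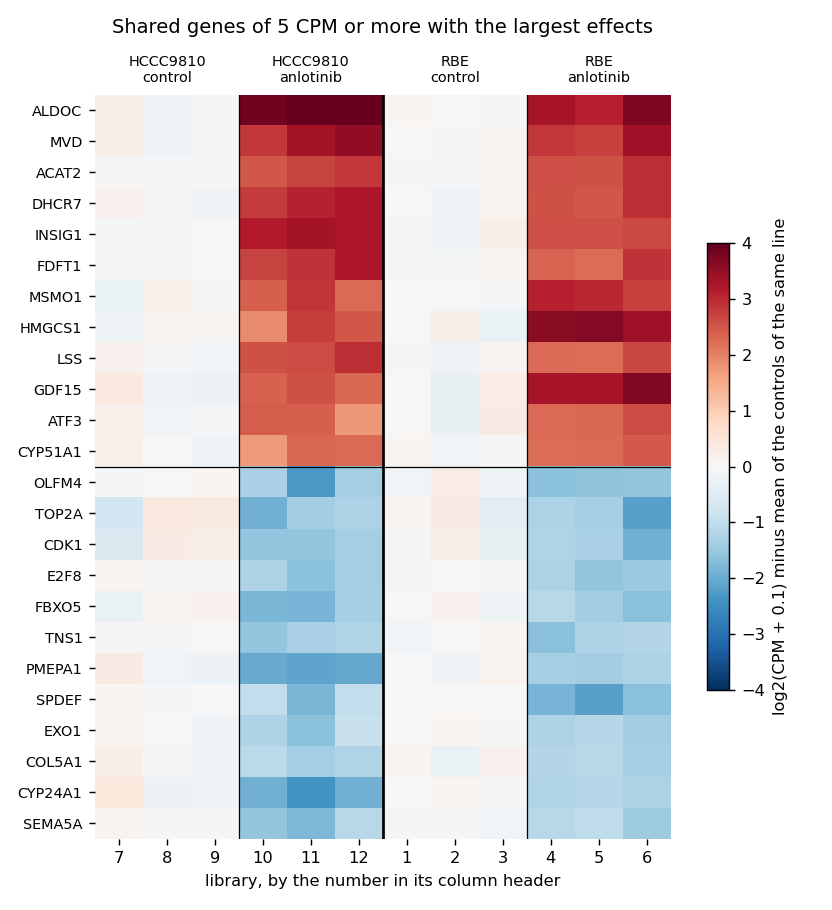
The 24 shared genes with the largest effects in their weaker line are shown, among those whose higher group reached 5 CPM in each line and whose CPM ranges were apart, 1 row per gene and 1 column per library, coloured by log2(CPM + 0.1) minus the mean of the controls of the same line. The 12 higher genes are red in all 6 treated libraries and the 12 lower genes are blue in all 6.

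Sterol uptake and regulation followed the pathway in part. SREBF2, which encodes SREBP2 itself, rose by a mean log2 fold change of 1.54 ± 0.12, and STARD4, a sterol carrier, by 1.95 ± 0.19. Of 14 genes of SREBP control and sterol uptake, 4 rose in both lines, none fell in both and 1 was called in opposite directions. For the mean effect 5 were higher and 1 lower. SREBF1 was not called in RBE (log2 fold change -0.32) but rose in HCCC9810 (1.05). In the opposite sense, ABCG1, a sterol exporter, fell in both lines, with a mean log2 fold change of -1.31 ± 0.20 (edgeR adjusted p 0.000491). It was the 1 gene lower in both lines among 5 tested genes of cholesterol efflux and LXR targets. Of these 5, 1 was higher and 2 were lower for the mean effect, and the median mean log2 fold change was 0.25.

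Fatty acid synthesis and desaturation moved with it. Of 21 tested genes, 11 rose in both lines, none fell in both, ACACB fell in HCCC9810 alone, and the median mean log2 fold change was 0.63. SCD, which introduces the first double bond into fatty acids, read 195, 194 and 201 CPM in HCCC9810 controls and 1857, 1683 and 1860 CPM with anlotinib. RBE held 656, 564 and 690 CPM in controls and 2446, 2572 and 2614 CPM with it. SCD was higher in all treated libraries, by a mean log2 fold change of 2.59 ± 0.19, and the rise was larger in HCCC9810 by 1.20 (difference RBE minus HCCC9810 -1.20, edgeR adjusted p 0.000154). ACSS2, which makes acetyl-CoA from acetate, rose more in RBE (2.84) than in HCCC9810 (1.76, edgeR adjusted p of the difference 0.00138). FASN, fatty acid synthase, rose by 1.85 ± 0.13, LPIN1 by 1.51 ± 0.09 and FADS1, a desaturase, by 1.13 ± 0.08.

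**Figure D3:**
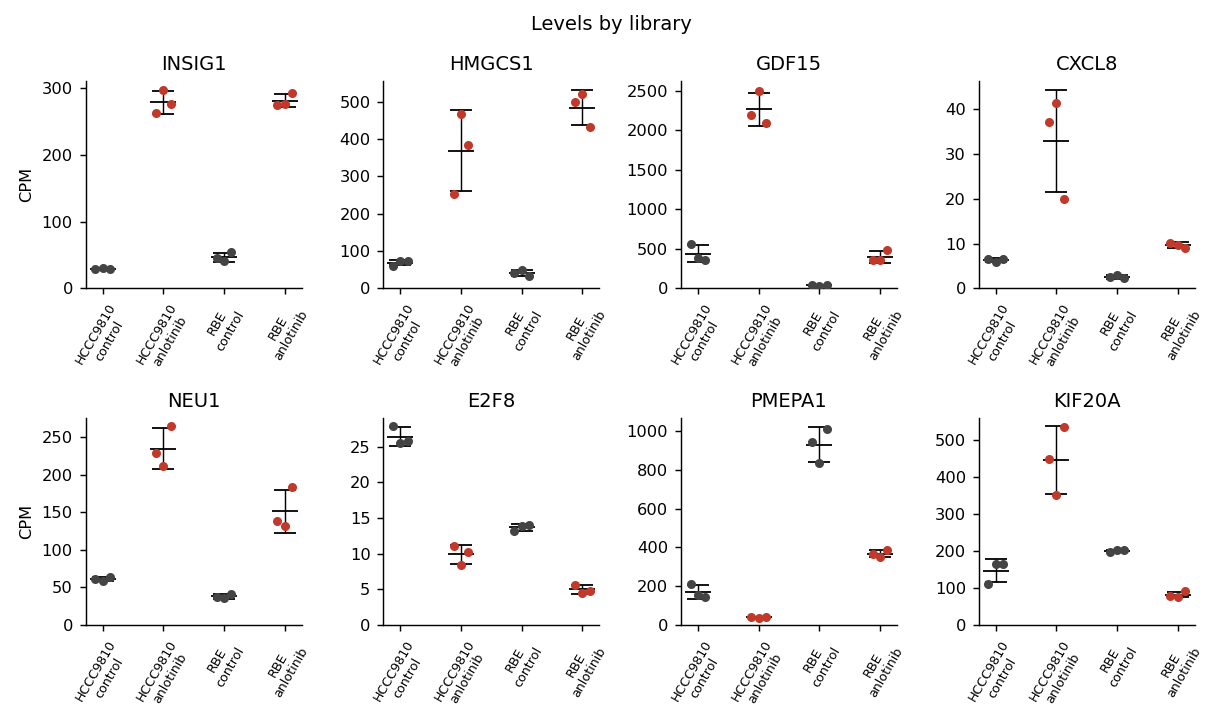
CPM is shown for 8 genes in the 4 groups, 1 point per library with the mean and SD as bars (n = 3), controls in grey and anlotinib in red. INSIG1, HMGCS1, GDF15, CXCL8 and NEU1 rose in both lines, E2F8 and PMEPA1 fell in both, and KIF20A rose in HCCC9810 and fell in RBE.

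Integrated stress response genes, which ATF4 switches on when translation is braked, rose in part. Of 19 tested, 7 rose in both lines, none fell in both, ATF5 fell in RBE alone, and the median mean log2 fold change was 0.57. GDF15, a stress cytokine, read 558, 389 and 360 CPM in HCCC9810 controls and 2197, 2499 and 2095 CPM with anlotinib, and in RBE 36.9, 29.9 and 44.8 CPM in controls and 358, 358 and 484 CPM with the drug. HCCC9810 held far more of it in both states, and the groups did not overlap within either line. GDF15 rose by a mean log2 fold change of 2.90 ± 0.21 (edgeR adjusted p 9.01e-07), with a larger effect in RBE by 1.04 (edgeR adjusted p 0.0152). ATF3 rose by 2.31 ± 0.15, DDIT3 (CHOP) by 1.58 in HCCC9810 and 1.43 in RBE with 39.6% of its exon bases shared, PPP1R15A by 1.27 ± 0.12 and TRIB3 by 1.62 ± 0.17. ASNS, asparagine synthetase, rose for the mean effect (0.79 ± 0.19) and passed the test in HCCC9810 but not in RBE. Amino acid transport and serine synthesis held no gene called in both lines with the same sign among 19 tested.

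Genes of endoplasmic reticulum chaperones and of the unfolded protein response went the other way in part. Of 24 tested, 5 were lower in both lines and none higher in both. For the mean effect 9 were lower and 2, HERPUD1 and ERN1, were higher. HSPA5 (BiP) read 1947, 1897 and 1910 CPM in HCCC9810 controls and 1224, 1139 and 1028 CPM with anlotinib, and in RBE 791, 801 and 834 CPM and 571, 554 and 602 CPM. Every treated library was below every control of its line, by a mean log2 fold change of -0.63 ± 0.08 (edgeR adjusted p 0.000156). CALR, HYOU1, PDIA3 and XBP1 were the other 4. The shared count was not stable: it ran from 1 to 8 over the alternatives, with 8 under GC and length offsets and 1 under RLE scaling. It was 1 without library 1, 5, 8, 9 or 12, 2 without library 7 or 11, and 3 without library 2, 3, 4 or 10. The count for the mean effect ran from 7 to 12.

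Lysosomal genes rose in part. Of 35 tested hydrolases and membrane proteins, 9 were higher in both lines and none lower in both. For the mean effect 15 were higher and 1, CTSB, was lower. NEU1, lysosomal sialidase, read 60.7, 59.0 and 63.4 CPM in HCCC9810 controls and 228, 211 and 264 CPM with anlotinib, and in RBE 37.9, 35.5 and 41.7 CPM and 138, 132 and 184 CPM. Its mean log2 fold change was 1.96 ± 0.10 (edgeR adjusted p 1.67e-08), close in both lines (1.94 and 1.98). NPC1, which exports cholesterol from the lysosome, rose by 1.01 ± 0.09 and LIPA, which frees cholesterol from its esters, by 0.99 ± 0.11, with the larger rise in RBE. Without HCCC9810 control library 8 the shared count was 5. Among 32 autophagy and TFEB genes 6 rose in both lines, among them SQSTM1 (1.34 ± 0.10) and the Rag GTPase gene RRAGD (1.21 ± 0.12), which sits under TFEB control.

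Immediate early genes and AP-1 members, which usually respond to growth signals and to stress, were higher. Of 23 tested, 13 rose in both lines and none fell in both, with a median mean log2 fold change of 0.91. EGR1 read 21.4, 15.7 and 14.5 CPM in HCCC9810 controls and 82.9, 72.1 and 81.2 CPM with anlotinib, and in RBE 9.27, 10.1 and 10.6 CPM and 19.7, 23.8 and 26.9 CPM. The mean log2 fold change of EGR1 was 1.72 ± 0.17 (edgeR adjusted p 1.85e-05), with no overlap in either line. Its rise was larger in HCCC9810 by 0.97 (difference -0.97, edgeR adjusted p 0.00824). FOS rose by a mean log2 fold change of 1.37 ± 0.14, FOSB by 2.23 ± 0.23, KLF6 by 1.01 ± 0.11 and MAFF by 1.65 ± 0.17. The NR4A receptors rose from low levels: NR4A3 reached at most 4.11 CPM, with a mean log2 fold change of 2.99 ± 0.23. KLF2, by contrast, fell for the mean effect (-1.02 ± 0.19) and missed the test in HCCC9810.

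Outputs of the ERK pathway, which growth factor receptors feed, were mixed. Of 20 tested, 4 rose in both lines, none fell in both, and ETV5 moved in opposite directions. DUSP5, a nuclear ERK phosphatase, rose by 1.77 ± 0.12, from 35.0 to 39.1 CPM in HCCC9810 controls to 124 to 162 CPM with the drug, and from 38.6 to 48.6 CPM to 115 to 175 CPM in RBE. MYC rose by 0.92 ± 0.13 and DUSP4 by 0.61 ± 0.11. SPRY4, a feedback inhibitor of receptor signalling, was lower for the mean effect (-0.51 ± 0.10) and called in RBE alone among the lines. The number higher for the mean effect was 8, and 5 without libraries 6 and 7; 7 rose in both lines under GC and length offsets.

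NF-kB targets and cytokines were higher. Of 22 tested, 11 rose in both lines and none fell, and 18 were higher for the mean effect, with a median of 1.17. CXCL8 (IL-8) read 6.64, 5.83 and 6.65 CPM in HCCC9810 controls and 37.1, 41.4 and 19.9 CPM with anlotinib, and in RBE 2.47, 3.07 and 2.23 CPM and 10.2, 9.77 and 9.04 CPM. Library 12 was the lowest of the treated HCCC9810 libraries and still above every control. CXCL8 rose by a mean log2 fold change of 2.15 ± 0.17 (edgeR adjusted p 2.15e-06), LIF by 1.42 ± 0.15, RELB by 1.17 ± 0.15 and TNFAIP3, a feedback inhibitor of NF-kB, by 1.17 ± 0.16. CXCL1 and CXCL2 rose by 2.10 ± 0.18 and 1.91 ± 0.22, but their near-identical sequences make the split of reads between them uncertain. CCL20 rose from 0.053 to 0.403 CPM in HCCC9810 controls to 0.71 to 1.85 CPM, a low level.

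**Figure D4:**
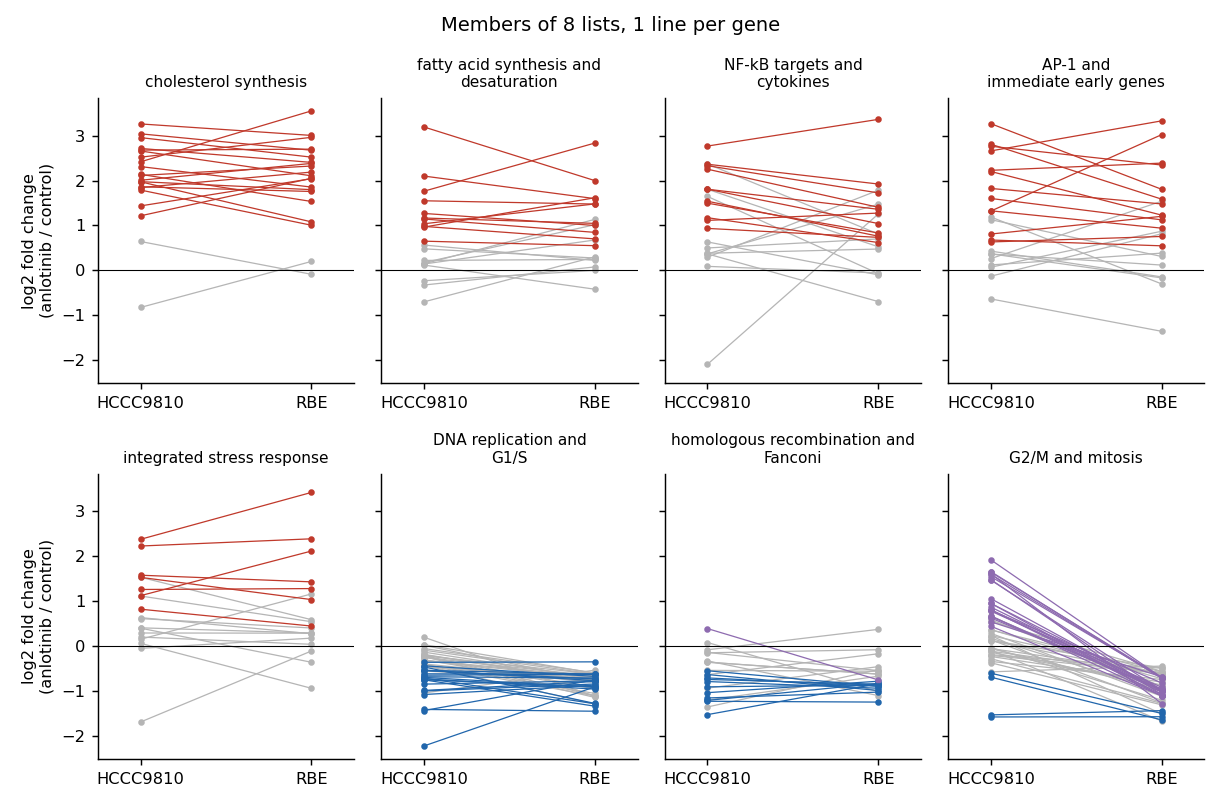
The log2 fold change of every tested member of 8 lists is shown in each line, joined by a line for each gene. Red members rose in both lines, blue fell in both, purple were called in opposite directions and grey were not called in both, and G2/M and mitosis is the list where most lines fall from HCCC9810 to RBE.

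Other stress and signalling groups rose less completely or differed between the lines. Of 28 p53 targets, 7 rose in both lines and none fell; 17 were higher for the mean effect, and 10 without libraries 6 and 7. Under GC and length offsets 12 rose in both lines. CDKN1A (p21), a brake of the cell cycle, rose by 0.74 ± 0.13, more in RBE (1.04) than in HCCC9810 (0.44, edgeR adjusted p of the difference 0.0450), and GADD45A by 1.24 ± 0.12. Among 20 FOXO targets 5 rose in both lines and 1 was called in opposite directions. CITED2, a transcriptional coregulator, was among the 5 that rose (1.14 ± 0.11). Of 20 YAP and TEAD targets 4 rose in both lines and 1 was called in opposite directions, while 8 were higher and 2 lower for the mean effect. CTGF rose by 1.53 ± 0.23 and CYR61 by 0.72 ± 0.11. Without HCCC9810 control library 8 or 9 the count of YAP and TEAD targets higher in both lines was 2. NDRG1, of the 4 shared genes among 25 hypoxia genes, rose by 2.59 in HCCC9810 and 0.92 in RBE (edgeR adjusted p of the difference 0.0027). Of the 25 hypoxia genes 1 was called in opposite directions, and without library 8 the count higher in both lines was 2. Among 28 NRF2 targets 3 rose in both lines and 4 were called in opposite directions. The opposite count was 1 without library 8, 2 without library 1, 2, 4, 5, 9 or 12, and 7 without both 6 and 7. In RBE 15 NRF2 targets were higher and 2 lower, in HCCC9810 5 higher and 5 lower. By the test of the difference 14 of the 28 differed between the lines.

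Glycolysis gave 4 shared risers and 1 shared faller among 19 tested, beside 4 genes called in opposite directions. In HCCC9810 11 were higher and 1 lower, in RBE 4 higher and 7 lower, and 10 differed by the test of the difference. ALDOC, an aldolase, had the largest rise of the named genes: 4.03, 3.07 and 3.21 CPM in HCCC9810 controls and 50.5, 58.5 and 63.8 CPM with anlotinib, and in RBE 1.93, 1.83 and 1.77 CPM and 18.8, 16.6 and 25.8 CPM. Its mean log2 fold change was 3.78 ± 0.16 (edgeR adjusted p 5.14e-09). Of its exon bases 10.1% are shared with another gene. PFKFB3, a glycolysis regulator, fell by a mean log2 fold change of -0.70 ± 0.08. The shared riser count was 1 without RBE control library 1, and 2 without HCCC9810 library 8, 9 or 12, RBE library 2, 5 or 6, or both 6 and 7. The opposite count was 1 without library 8, 9 or 12, 2 without library 11, and 8 without both 6 and 7.

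Genes of DNA replication fell. Of 45 tested, 40 were lower for the mean effect, 21 were lower in both lines and none was higher, with a median mean log2 fold change of -0.64. The fall was called more widely in RBE, in 44 genes against 22 in HCCC9810, with median log2 fold changes of -0.78 and -0.44. By the test of the difference 11 of the 45 differed between the lines. The count lower in both lines ran from 15 to 31 over the alternatives. E2F8, an E2F family member that turns on in S phase, read 27.9, 25.6 and 25.8 CPM in HCCC9810 controls and 11.1, 8.40 and 10.2 CPM with anlotinib, and in RBE 13.2, 13.9 and 14.1 CPM and 5.66, 4.52 and 4.82 CPM. Treated and control libraries were apart in both lines, and the log2 fold changes were -1.42 and -1.46. POLA1, the catalytic subunit of the priming polymerase, fell by a mean log2 fold change of -0.93 ± 0.12, PCNA, the sliding clamp, by -0.64 ± 0.09, and CDC6, which loads the helicase, by -0.89 ± 0.11. CCNE2, with 37.1% of its exon bases shared, fell by -2.23 in HCCC9810 and -0.91 in RBE (edgeR adjusted p of the difference 0.00952). The E2F element TTTGGCGC stood in 31.6% of the 19 promoter windows of the falling replication genes and 0.652% of all windows, and the NF-Y box in 63.2% and 34.6%.

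Homologous recombination and Fanconi genes fell beside them. Of 24 tested, 11 were lower in both lines, none was higher in both, and EME1 was higher in HCCC9810 and lower in RBE. The median was -0.77, and 16 were lower for the mean effect. EXO1, a resecting exonuclease, read 62.6, 57.4 and 51.5 CPM in HCCC9810 controls and 24.0, 18.1 and 30.9 CPM with anlotinib, and in RBE 42.3, 45.8 and 40.9 CPM and 18.2, 19.6 and 16.2 CPM. EXO1 was lower in every treated library, by a mean log2 fold change of -1.24 ± 0.12 (edgeR adjusted p 9.11e-06). BRCA1 fell by a mean log2 fold change of -0.87 ± 0.13, BRIP1 by -1.18 ± 0.19 and XRCC2 by -0.89 ± 0.10. In these libraries fewer cells in S phase and less RNA per cell cannot be told apart.

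Mitotic genes did not share a direction. Of 50 tested, 4 fell in both lines, none rose in both, and 21 were called in opposite directions, all higher in HCCC9810 and lower in RBE. TOP2A, topoisomerase II of chromosomes, was one of the 4, at 198, 438 and 433 CPM in HCCC9810 controls and 87.8, 128 and 141 CPM with anlotinib, and in RBE 593, 705 and 419 CPM and 231, 219 and 124 CPM. Control library 7 was the lowest control of HCCC9810 and library 6 the lowest treated library of RBE, and its mean log2 fold change was -1.58 ± 0.22 (edgeR adjusted p 0.000292). CDK1 fell by a mean log2 fold change of -1.49 ± 0.16, UBE2C by -1.06 ± 0.16 and SPC25 by -1.16 ± 0.19, the last 2 more in RBE. KIF20A read 111, 165 and 164 CPM in HCCC9810 controls and 450, 353 and 536 CPM with anlotinib, against 197, 202 and 202 CPM and 79.1, 76.8 and 91.1 CPM in RBE, a difference of -2.89 (edgeR adjusted p 7.89e-06). MKI67 fell in RBE alone, and its mean effect (-0.62 ± 0.20) lost its call when any library other than 7 and 12 was left out alone. CHR elements stood in all 4 windows of the 3 matched mitotic genes that fell in both lines, in 55.6% of the 18 windows of the opposite mitotic genes, in 10.7% of the windows of tested genes and in 15.2% of all windows.

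**Figure D5:**
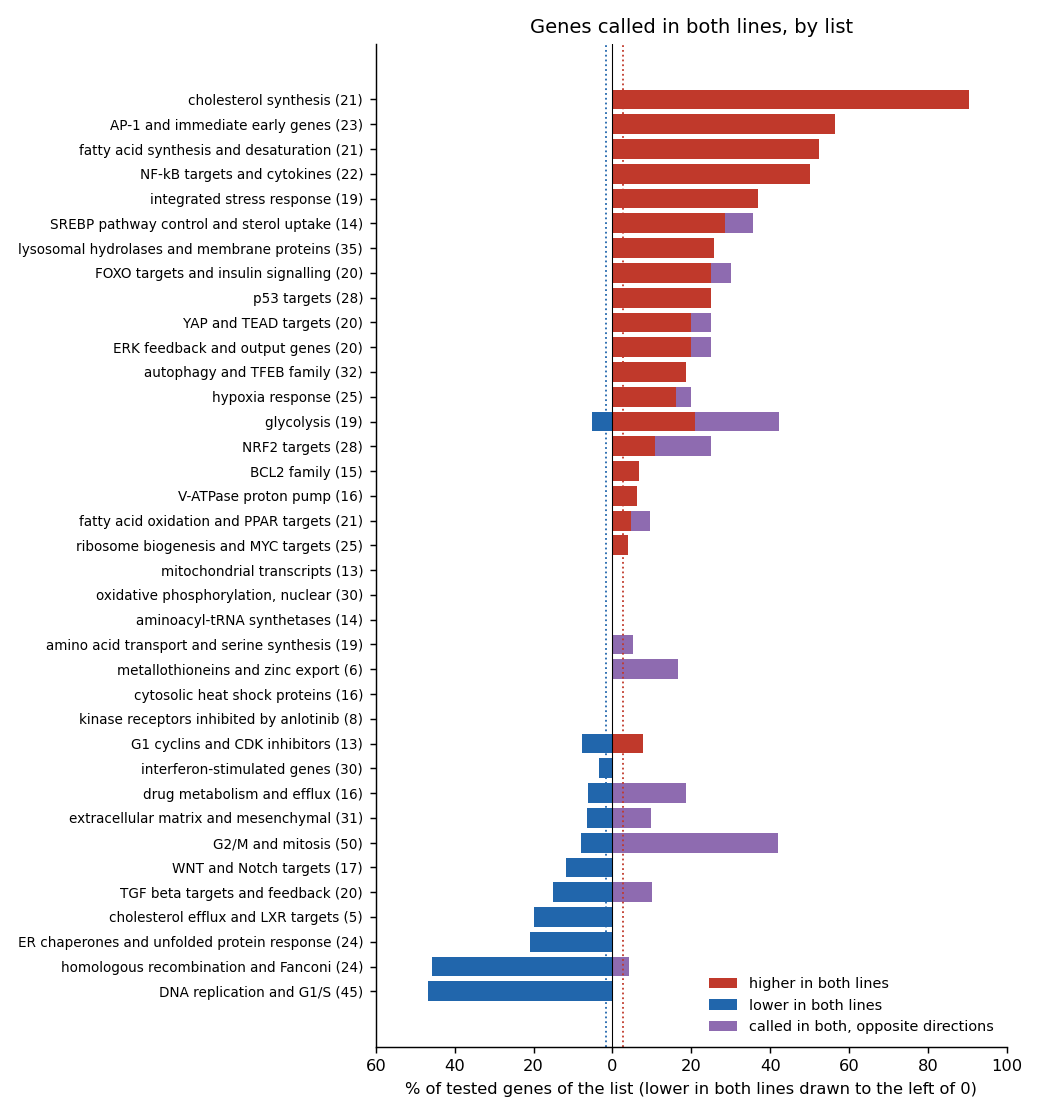
For each list the share of tested members called higher in both lines (red, to the right), lower in both (blue, to the left) and in opposite directions (purple, added to the right) is shown, with the number tested in brackets. Dotted lines mark the shares over all genes tested, 2.64% and 1.76%, and cholesterol synthesis (19 of 21) and DNA replication (21 of 45) stand at the ends.

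Falls outside the cell cycle included TGF beta targets, of which 3 of 20 were lower in both lines (5 without library 11 or under GC and length offsets) and 2, TGFB2 and TGIF1, were called in opposite directions. PMEPA1, a TGF beta feedback inhibitor, read 214, 156 and 144 CPM in HCCC9810 controls and 41.9, 38.7 and 40.6 CPM with anlotinib, and in RBE 945, 834 and 1011 CPM and 366, 350 and 385 CPM. PMEPA1 fell in all 6 treated libraries, by a mean log2 fold change of -1.71 ± 0.14 (edgeR adjusted p 3.22e-06), more in HCCC9810 (difference RBE minus HCCC9810 0.74, edgeR adjusted p 0.018). TGFBI fell by -0.80 ± 0.11 and BAMBI by -1.01 ± 0.15. Matrix and mesenchymal genes shared little: of 31 tested, 2 were lower in both lines, none was higher in both and 3 were called in opposite directions. In HCCC9810 13 were lower and 2 higher, in RBE 2 lower and 6 higher, and 15 differed by the test of the difference. COL5A1, a fibrillar collagen chain, fell in both lines by -1.22 ± 0.10 and TNC by -0.91 ± 0.13.

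Among the other named genes that fell was OLFM4. OLFM4, a glycoprotein of gut epithelium, read 131, 134 and 144 CPM in HCCC9810 controls and 55.7, 27.8 and 52.5 CPM with anlotinib, and in RBE 12.6, 16.5 and 11.9 CPM and 4.31, 4.35 and 4.6 CPM. It fell by a mean log2 fold change of -1.61 ± 0.15 (edgeR adjusted p 8.67e-06), with no overlap in either line. CYP24A1, which breaks down active vitamin D, fell by -1.62 ± 0.17 and more in HCCC9810, SPDEF, a secretory transcription factor, by -1.61 ± 0.18, and TNS1, a focal adhesion protein, by -1.36 ± 0.12.

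Transcripts of the receptors themselves showed no shared change. Of the 12 receptors, 8 had enough counts, and KDR, FLT1, FLT4 and KIT had too few. None passed the test in both lines. FGFR2 rose in RBE alone (1.22 ± 0.20). FGFR1 stood at 8.20 RPKM in HCCC9810 controls and 21.7 RPKM in RBE controls, and FGFR4 at 0.689 and 39.2 RPKM. PDGFRA, PDGFRB and RET passed the test for the mean effect, but their levels in HCCC9810 were at most 0.536 CPM, and each call was lost in at least 1 alternative.

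Several groups held few shared genes or none. Over all genes tested 2.64% were higher in both lines, 1.76% lower in both and 1.95% opposite. A count of 1 in lists of this size is therefore not read as a result about the list. None of 30 nuclear genes of oxidative phosphorylation, 14 aminoacyl-tRNA synthetase genes or 16 cytosolic heat shock genes was called in both lines with the same sign, although 7 synthetases rose in HCCC9810. For oxidative phosphorylation, 5 genes were called in opposite directions without library 6 and 11 without both 6 and 7. A single gene rose in both lines among 16 genes of the V-ATPase and 15 of the BCL2 family. For the mean effect 6 V-ATPase and 6 BCL2 family genes were higher and none lower, beside 7.67% higher of all genes tested. Over the alternatives these counts of higher genes ran from 3 to 9 and from 1 to 8. A single gene also rose in both lines among 25 of ribosome biogenesis and 21 of fatty acid oxidation. Of the fatty acid oxidation genes 1 was called in opposite directions. A single gene fell in both lines among 30 interferon-stimulated genes and 16 of drug metabolism. Of the drug metabolism genes 3 more were called in opposite directions. Under GC and length offsets 4 V-ATPase, 4 BCL2 family and 3 ribosome biogenesis genes rose in both. Of 17 WNT and Notch targets 2 fell in both lines, and 4 without libraries 6 and 7. The share of counts on messenger RNA of the mitochondrial genome was 5.03 ± 0.612% in HCCC9810 controls and 6.06 ± 0.428% with anlotinib, and 6.63 ± 0.5% and 6.77 ± 0.49% in RBE (SD, n = 3). The mean difference was 0.583 percentage points (exact permutation test within lines, two-sided p 0.095, smallest possible 0.005).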

How the data were processed

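Gene counts and RPKM values for 12 RNA-seq libraries were used as deposited by the authors. Reads were aligned with HISAT2 to GRCh38, per the submitters' processing notes. The counting program, annotation, strand setting and treatment of reads with several matches are not given in the sources used here. Deposited RPKM values equalled count over gene length and library total within 0.039%. All 58216 gene IDs were in GENCODE 29, which gave coordinates, GC content and exon overlap.

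Counts were filtered (filterByExpr) and TMM-scaled in edgeR 4.0.16 (R 4.3.3), and tested by the robust quasi-likelihood test with Benjamini-Hochberg adjustment over all 18035 genes. One model with line and treatment gave the mean effect, and a model of all 4 groups gave each line's effect and their difference. The script was tested on simulated data. RPKM served for levels between genes and for markers.

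Named genes were the 12 per direction with the largest effect in the weaker line, among shared genes whose higher group reached 5 CPM in each line and whose CPM ranges were apart; up to 4 per direction from each list by the same measure; the 6 opposite genes with the smallest larger p of both lines; the receptors; and MKI67, CDKN1A, KRT7 and KRT19. Other list members named were picked from their list after values were seen. Members and all 42 lists were chosen with earlier results of these data known. Replicates are called biological in the design text, and p-values measure the spread between these libraries. Reads from overlapping or near-identical genes may have been split between them. Alternatives were DESeq2 1.42.0, other scalings and filters, GC and length offsets, each line alone, and libraries left out. Results for some genes are not reported here.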

Additional observations from a re-analysis of the deposited data

Results flagged for a closer look

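By the edgeR test of the difference (adjusted p below 0.05), the effect of anlotinib differed between the lines for 31 of 118 named genes. Of all genes tested, 2990 (16.6%) passed that test. KIF20A, BIRC5, SLAMF7, GCNT4, KRT4 and FBN1 were named for opposite signs in the lines, so their calls were largely fixed by that choice. Differences are log2 fold changes in RBE minus those in HCCC9810, so for a gene that fell a positive value means a smaller fall in RBE. Among genes of sterol, fatty acid and lysosomal metabolism the difference was -0.66 for INSIG1, 1.13 for HMGCS1, -1.20 for SCD, 1.07 for ACSS2, 0.63 for LIPA and 0.66 for RRAGD. Among stress, hypoxia and glycolysis genes it was 1.04 for GDF15, -1.67 for NDRG1, 0.42 for BHLHE40, -1.26 for PFKFB4, -0.79 for ENO2, 0.45 for HK2 and 0.59 for CDKN1A. Of the signalling genes it was -0.97 for EGR1, -0.59 for DUSP4, 0.74 for PMEPA1 and 0.91 for CYP24A1. Cell cycle genes gave 1.32 for CCNE2, -0.95 for SPC25, -0.90 for UBE2C, -2.89 for KIF20A, -1.92 for BIRC5 and -1.17 for MKI67. The other genes named for opposite effects gave 3.15 for SLAMF7, 3.57 for GCNT4, 6.70 for KRT4 and 2.29 for FBN1, and KRT4 fell in HCCC9810 by 3.84 and rose in RBE by 2.86 on the log2 scale. Receptors and keratins gave 1.23 for FGFR2, -0.59 for FGFR4, 0.89 for KRT7 and 1.43 for KRT19.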

How the results depend on the processing

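No paired analysis was possible because the groups share no replicate numbers. Of the 106 named genes called for the mean effect, 101 kept the call in every one of the 21 alternatives that gave a result for them. For CCL20, EGR2 and EGR3 that was 20. KRT7, MKI67, PDGFRA, PDGFRB and RET, which were named whatever their calls, lost the call in some, and no sign turned. Most other named genes were picked for passing the calls with large effects. Their kept calls therefore follow in part from that choice. Under GC and length offsets 734 genes were higher and 570 lower in both lines, of which 431 and 268 were among the 477 and 318. Without libraries 6 and 7 the mean effect was called for 1698 genes, and 1611 of all 2605 genes kept the call. Leaving out single libraries gave 1839 to 2506 genes for the mean effect, 326 to 512 higher in both lines, 179 to 297 lower in both, and 1473 to 4865 for the difference. The count lower in both was 195 without library 8, 188 without library 5 and 179 without library 1. The difference was called for 1727 genes without library 8, 1681 without 9, 1649 without 4, 1473 without 5, 4865 without 6, 1784 without 1 and 1643 without 3. The mitochondrial share differed by 0.447 to 0.755 percentage points, and by 0.718 without library 2 (exact permutation p 0.045). The causes were not tested. DESeq2 called 529 higher and 340 lower in both lines, and each line fitted alone 379 and 259. Precision is limited by 3 libraries per group, and reads of genes that overlap cannot be told apart.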

Other observations

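The genes given here are called in both lines with the same sign, lie outside the lists and were picked after their values were seen. HDAC9, a histone deacetylase, rose from 8.23 ± 0.175 to 31.6 ± 9.84 CPM in HCCC9810 and from 6.46 ± 0.687 to 27.1 ± 3.1 CPM in RBE (SD, n = 3). PLA2G4C, a phospholipase, rose by a mean log2 fold change of 1.90, PTPRR, a tyrosine phosphatase, by 2.27 and PER1, a clock gene, by 1.22. Among the falling genes were CLSPN, which signals replication stress, at -1.68 in HCCC9810 and -0.91 in RBE (edgeR adjusted p of the difference 0.0258), and SPOCK1, a matrix proteoglycan, at -0.98 and -1.86 (edgeR adjusted p of the difference 0.00185). CLDN2, a tight junction channel, fell by a mean log2 fold change of -1.10, SKP2, a ubiquitin ligase subunit, by -0.84 and DUT, which keeps uracil out of DNA, by -0.76.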
